A study of Homo sapiens with 18 samples.

Results

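The genes described here encode the proteins of the cytosolic ribosome. They were picked by gene symbol alone, without any measured value: symbols made of RPL or RPS and a number, with the endings A, L, L1 or X allowed, together with RPLP0, RPLP1, RPLP2 and RPSA. This gave 85 of the 50119 genes listed. Of these, 77 were standard ribosomal protein genes, 46 of the large subunit and 31 of the small subunit, and 8 were paralogs, close copies of a standard gene at another place in the genome: RPL3L, RPL7L1, RPL10L, RPL22L1, RPL26L1, RPL36AL, RPL39L and RPS27L. FAU and RACK1 also encode ribosomal proteins, but their symbols do not follow the rule, so they are described separately.

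A ribosome reads mRNA and joins amino acids into protein. Its large subunit makes the peptide bond and its small subunit decodes the message, and the proteins hold the ribosomal RNA in shape. The mRNAs of these proteins are among the most abundant in growing cells. Most of them begin with a run of pyrimidines, the 5′ terminal oligopyrimidine tract, which lets the mTOR pathway and LARP1 set their translation and stability. Many ribosomal protein genes left processed pseudogenes across the genome, and this makes short reads from them harder to place.

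The RNA came from 6 groups with 3 libraries each. D-2 was 2D cells, D-3 was 3D cells set in Matrigel drops, and DP-3 was tissue bioprinted with an ink of gelatin and alginate. These were cultured for 14 days, and DP-3 was also sampled after 1 day. IT was tumor tissue taken from mice and cultured on Matrigel for 14 days, and FIT was fresh tumor tissue that had grown in vivo. All groups carried the cell line label Saos-2 (written Soas-2), an established line from a human osteosarcoma (OS), and the genotype label WT. The tumors grew under the skin of female BALB/c nude mice that were 4 weeks old at implantation. Each tumor was divided between culture and fresh tissue, so IT and FIT may share animals, but the labels do not tie libraries to animals. FIT and IT could also hold mouse cells, and RNA from them may have been read as human. All groups come from 1 cell line, and nothing in the labels says that the libraries of a cultured group came from separate cultures, so the p-values measure only the spread between these libraries.

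The total of the estimated counts was between 50327345 and 79082786 in 17 libraries and 23721666 in FIT replicate 3. Some libraries stood apart or went against their labels. In DP-3 replicate 3, 34.0% of the FPKM belonged to mitochondrial genes, against 17.7% and 18.5% in the other DP-3 libraries. FPKM scales the fragments of a gene to its transcript length and to the library size. Levels of different genes can then be compared as far as the transcript lengths used are right. Saos-2 is known for strong alkaline phosphatase, but the FPKM of ALPL, which encodes that phosphatase, was at most 0.148 in every library. IBSP, another gene of bone-forming cells, was listed at 0 in all libraries but 2 of DP-3 day 1. Markers of possible host cells differed between groups, and their part in the results was not tested. The summed FPKM of 14 skeletal muscle genes was 2.66, 1.67 and 6.57 in FIT replicates 1, 2 and 3 and 0.288 to 0.466 in D-2. That of 7 endothelial genes was 5.52 to 9.39 in FIT and 2.20 to 2.64 in D-2. Sums above D-2 were not particular to tumor tissue. In DP-3 day 1, printed from cultured cells, the muscle sum reached 1.95, above FIT replicate 2. The endothelial sum reached 4.39 there, below every FIT library. D-3 libraries had muscle sums between 1.37 and 1.42, but their endothelial sums overlapped with D-2. For 6 fibroblast genes, FIT (130 to 196) and D-2 (146 to 178) overlapped. Of 10 macrophage genes, C1QA, C1QB and TYROBP were listed at 0 in every group but DP-3 day 1, and the summed FPKM was 25.3 to 61.8 in FIT and 47.6 to 50.4 in D-2.

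To show what most members share at their 5′ end and where the paralogs depart from it, 8 start sites are printed below. Each window runs from 10 bases before to 19 bases after the first base of the RefSeq transcript on GRCh38.p14, on the sense strand, so the start is base 11. Capitals mark the unbroken run of C and T that begins with a C at the start. RPS12 was the most abundant member, RPL41 and RPS24 were among the 4 members that fell most and RPS29 among those that fell least between D-2 and DP-3 day 1, and RPL22L1, RPL26L1, RPL7L1 and RPS27L are paralogs.
RPS12 (chr6:132814559-132814588, plus strand): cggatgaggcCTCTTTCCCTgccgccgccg
RPL41 (chr12:56116623-56116652, plus strand): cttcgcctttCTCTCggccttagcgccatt
RPS24 (chr10:78033853-78033882, plus strand): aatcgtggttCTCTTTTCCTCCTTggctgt
RPS29 (chr14:49598691-49598720, minus strand): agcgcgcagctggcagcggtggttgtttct
RPL22L1 (chr3:170870176-170870205, minus strand): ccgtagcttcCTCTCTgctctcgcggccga
RPL26L1 (chr5:172958719-172958748, plus strand): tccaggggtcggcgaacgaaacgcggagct
RPL7L1 (chr6:42879606-42879635, plus strand): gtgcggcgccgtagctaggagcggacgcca
RPS27L (chr15:63157458-63157487, minus strand): gatgccgagcgcagatcgcttgcagcttgc

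RefSeq gave a start window for 68 of the 85 members. A C at the start followed by 4 bases that are each C or T was found in 46 of 62 standard members, 74.2%, and in 1 of 6 paralogs, RPL22L1. The same 5 positions matched in 1404 of 27305 genes of the table, 5.14%. Among related genes the start was found in 8 of 9 translation factors, in 6 of 67 proteins of the mitochondrial ribosome and in 4 of 34 ribosome assembly factors. The run was 14 bases long in RPS24, 10 in RPS12 and 5 in RPL41, while RPS29 had none at the annotated start. A start annotated a few bases away hides the motif, and within 4 bases of the start it was present in 83.9% of the standard members and 18.6% of all genes. Only the sense strand was read, and a match describes the letters and not how the mRNA is used.

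The members lay on 21 chromosomes, with 12 on chromosome 19, 9 on chromosome 3 and 4 on the X chromosome. All 85 positions overlapped the gene of the same identifier in GENCODE release 29 on GRCh38.

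Nearly all members were expressed in every culture and in the tumor. In all 18 libraries, 83 of the 85 had an FPKM of at least 0.1. The mean FPKM of the 77 standard members over the 18 libraries ranged from 21.3 to 821 with a median of 150, and the 8 paralogs gave 1.95% of the members' summed FPKM. The 5 highest members, with RPS12, RPS2, RPL8 and RPL41 among them, together gave 21.9%. RPS12, a small subunit protein, ranged over 888 to 957 FPKM in D-2 and 942 to 1109 in D-3. In tumor tissue it ranged over 797 to 1214 FPKM after culture (IT) and 709 to 800.4 when fresh (FIT). In DP-3 it was at 643, 769 and 282 FPKM, the last in replicate 3, and in DP-3 day 1 at 682 to 709. RPS2, which lines the mRNA entry of the small subunit, was at 814 to 854 FPKM in D-2 and at 592 to 594 in DP-3 day 1, and these groups did not overlap. Apart from the paralogs, RPS29, RPL34, RPL14, RPS24 and RPL36A were lowest. RPS29, a small zinc-binding protein of the small subunit, was at 17.4 to 20.8 FPKM in D-2, 7.39 to 16.1 in DP-3 and 21.4 to 27.0 in FIT. RPL34 was at 45.5 to 48.8 FPKM in D-2 and 23.9 to 26.05 in DP-3 day 1. RPL14 was at 40.8 to 51.1 FPKM in D-2 and 34.2 to 40.7 in DP-3 day 1.

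Summed over the 85 members, ribosomal protein mRNA was most abundant in 2D cells, 3D cells and cultured tumor tissue, and least abundant in printed tissue at day 1 and in the fresh tumor. The members held 7.81%, 7.26% and 7.36% of the FPKM in the D-2 libraries, 7.95%, 7.27% and 6.99% in D-3 and 6.59%, 6.59% and 7.52% in IT. They held 6.19%, 6.602% and 3.73% in DP-3, 5.58%, 5.33% and 5.29% in FIT and 5.13%, 5.19% and 5.17% in DP-3 day 1. D-2, D-3 and IT overlapped with each other, and every library of these groups was above every FIT and DP-3 day 1 library. DP-3 replicate 1 lay between these levels, replicate 2 was at the level of the lower IT libraries, and replicate 3 was the lowest of all libraries. Means were 7.48% ± 0.292 in D-2, 7.40% ± 0.495 in D-3, 6.90% ± 0.536 in IT, 5.51% ± 1.55 in DP-3, 5.401% ± 0.154 in FIT and 5.16% ± 0.0276 in DP-3 day 1 (SD, n = 3).

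**Figure D1:**
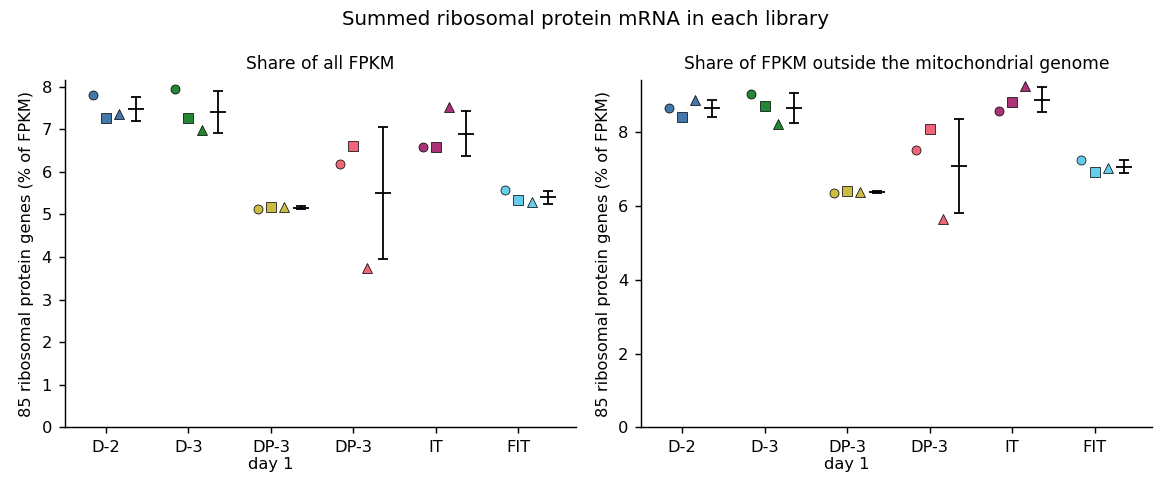
Share of the FPKM that belonged to the 85 ribosomal protein genes (vertical axis, %), for each library (circle, square and triangle for replicates 1, 2 and 3) with the group mean and SD beside it, out of all FPKM on the left and of the FPKM outside the mitochondrial genome on the right. D-2, D-3 and IT lie above FIT and DP-3 day 1 in both panels, and DP-3 replicate 3 lies lowest, at 3.73% and 5.65%.

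Out of the FPKM outside the mitochondrial genome, the members held 8.64% ± 0.234 in D-2, 8.66% ± 0.410 in D-3, 8.87% ± 0.338 in IT, 7.09% ± 1.28 in DP-3, 7.07% ± 0.171 in FIT and 6.37% ± 0.0300 in DP-3 day 1 (SD, n = 3). On this scale IT had the highest mean, by less than the spread between its libraries. In bulk RNA, fewer cells of a type and less RNA of these genes per cell cannot be told apart. By group means of FPKM, D-2 was highest for 30 of the 77 standard members, D-3 for 29 and IT for 18, and the other groups for none. The lowest group was DP-3 day 1 for 46, DP-3 for 17 and FIT for 14. For a standard member, the highest group mean was 1.59 times the lowest at the median, and between 1.29 and 2.16 times over all 77.

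**Figure D2:**
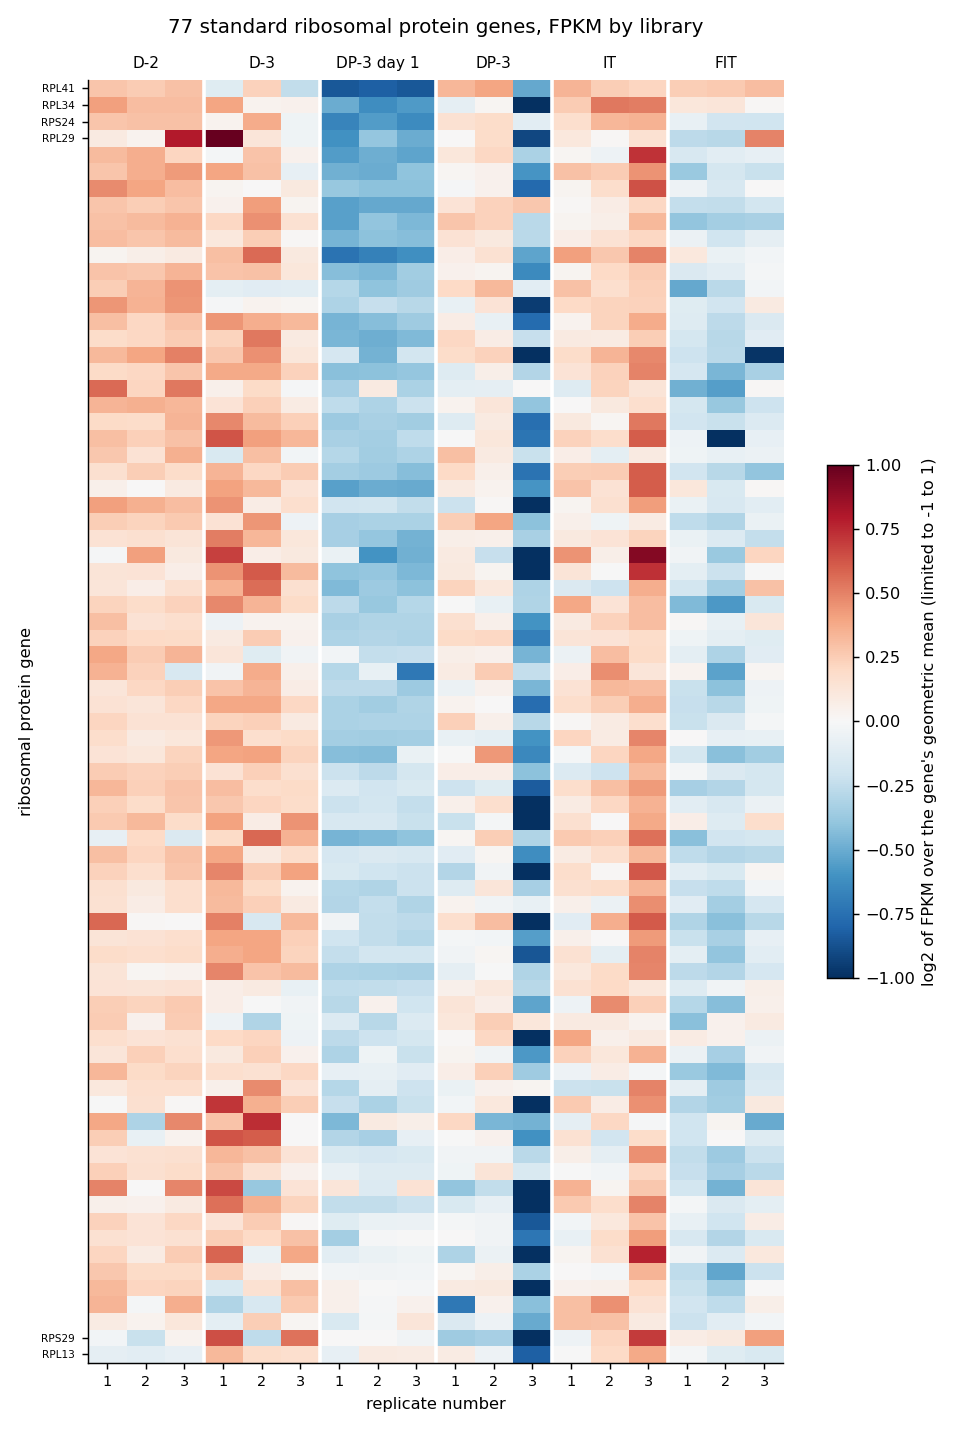
FPKM of the 77 standard members (rows, ordered by their log2 fold change between DP-3 day 1 and D-2) in the 18 libraries (columns, by group and replicate), as log2 of the FPKM over the gene's geometric mean and limited to the range from -1 to 1. Most rows are blue in DP-3 day 1 and in DP-3 replicate 3 and red in D-2, D-3 and IT replicate 3, with the first 4 and last 2 rows named, while the last rows, RPS29 and RPL13, are near white in DP-3 day 1.

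Differences between groups were tested gene by gene on the estimated counts with edgeR's quasi-likelihood test, scaled by TMM, which sets the average gene's change near 0. The adjusted p follows Benjamini and Hochberg over all genes tested, and genes below 0.05 are called changed. In a test for any difference among the 6 groups, 68 of 84 members were called, while 36.7% of the 25977 genes tested were called. The smallest p-values belonged to RPS24, RPS26, RPS25, RPL24 and RPL26, with adjusted p between 4.85e-05 and 0.000142. RPS24, RPS25 and RPS26 belong to the small subunit, where RPS26 sits at the mRNA exit, and RPL24 and RPL26 belong to the large subunit. With libraries scaled to the summed count of the standard members, so that only departures from the common level remain, 13 members and 46.3% of all genes were called.

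The first comparisons asked how each culture differed from the tumor grown in vivo. They share the 3 FIT libraries, so their results are not independent of each other. In D-2, ribosomal protein mRNA was higher than in FIT across both subunits. The log2 fold change had a median of 0.51 over 83 members tested, or 1.43-fold, against -0.09 over all 19513 genes. It was 0.49 over the large subunit and 0.58 over the small subunit. Of the 83 members, 64 rose and 0 fell, while 16.0% of all genes rose and 14.9% fell. Only RPL21 reached a fold change of 2, and 3.83% of all genes rose by that much. All D-2 libraries were above all FIT libraries in FPKM for 65 of 83 members, against 18.9% of all genes.

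RPL21, a large subunit protein, was at 161, 168 and 182 FPKM in D-2 and at 111, 106 and 65.1 in FIT. Its log2 fold change was 1.004 ± 0.21 (SE, adjusted p = 0.0121). The FIT libraries of RPL21 differed widely, with replicate 3 lowest, and the groups did not overlap. The other end held RPS29 at -0.12 (adjusted p = 0.518), RPL22L1 at 0.14 (adjusted p = 0.609) and RPL41 at 0.16 (adjusted p = 0.215) on the log2 scale. RPL41, the shortest of the proteins, was at 693, 684 and 700 FPKM in D-2 and 678, 687 and 707 in FIT, so that the groups overlapped. Scaled to the standard members, RPL41 fell by 0.36 and RPS29 by 0.63 on the log2 scale in D-2 against FIT (adjusted p = 0.0218 and 0.00485).

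In D-3 the median member was again above FIT, but few members passed the test. The median log2 fold change was 0.32 over 84 members, against 0.02 over all 21676 genes, and 79 members were above 0. Of the 84, 4 rose and 0 fell, while 5.11% of all genes rose and 3.17% fell. The share of members called was therefore near the share of all genes. RPS27L rose by 1.03 ± 0.21 on the log2 scale (SE, adjusted p = 0.0239), and RPL26, RPL11 and RPS25 rose by 0.67, 0.59 and 0.59 (adjusted p = 0.0407, 0.0440 and 0.0436). RPL11, a large subunit protein, was at 256, 258 and 228 FPKM in D-3 and 173, 147 and 154 in FIT. RPS27L was at 13.6, 8.37 and 13.3 FPKM in D-3 and 5.74, 5.62 and 5.24 in FIT. Both pairs of groups were apart. RPL41, RPLP0 and RPS20 had the lowest log2 fold changes, -0.36, -0.11 and -0.07, and none passed the test, but scaled to the standard members RPL41 fell by 0.66 (adjusted p = 0.0428). Without any 1 of the 6 libraries, at most 2 members were called, and 0 were called without D-3 replicate 1, D-3 replicate 3 or FIT replicate 2. In FPKM, all D-3 libraries were above all FIT libraries for 53 of 84 members, against 20.5% of all genes.

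In DP-3 the level was nearest to FIT. The median log2 fold change was 0.16 over 83 members, against -0.06 over all 20039 genes, and 64 members were above 0. RPS26 rose by 0.56 ± 0.13 on the log2 scale (SE, adjusted p = 0.0436) and was the only member called, while 8.40% of all genes were called, 4.21% higher in DP-3. RPS26 was at 163, 173 and 178 FPKM in DP-3 and 125, 125 and 130 in FIT. DP-3 replicate 3 was the highest DP-3 library for RPS26, unlike for most members. RPL23A, part of the site where the signal recognition particle docks, had a log2 fold change of 0.57 (adjusted p = 0.0697). Its groups did not overlap. All DP-3 libraries were above all FIT libraries in FPKM for 6 of 83 members, or 7.23%, against 12.5% of all genes. RPS29, RPS21 and RPLP1 were lowest, at -0.72, -0.41 and -0.39 on the log2 scale (adjusted p = 0.131, 0.487 and 0.489). Without DP-3 replicate 3, the library rich in mitochondrial RNA, the median was 0.30, and 0 members were called, as when any other library was left out.

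In IT no member was called by edgeR, and no gene at all was called among 21183 (0.00%), so the calls say nothing particular about the members. At an unadjusted p below 0.05 there were 27 members and 2693 genes. DESeq2 called 5 of the 83 members and 4.34% of all genes. In 1 fit of all 18 libraries, which shares the spread of the other groups, 14 members and 4.89% of all genes were called. The median log2 fold change was 0.38 over 83 members, against 0.01 over all genes, and 79 were above 0. All IT libraries were above all FIT libraries for 56 of the 83 members, against 11.1% of all genes. RPL21 and RPL17 were among the highest, at 0.79 and 0.67 on the log2 scale, and RPL7L1, RPL26L1 and RPL39L, all paralogs, lowest, at -0.30, -0.14 and -0.07. RPL17 shares exons with the readthrough gene RPL17-C18orf32, listed at 0 to 19.8 FPKM, and reads of the pair may have been split differently between libraries.

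**Figure D3:**
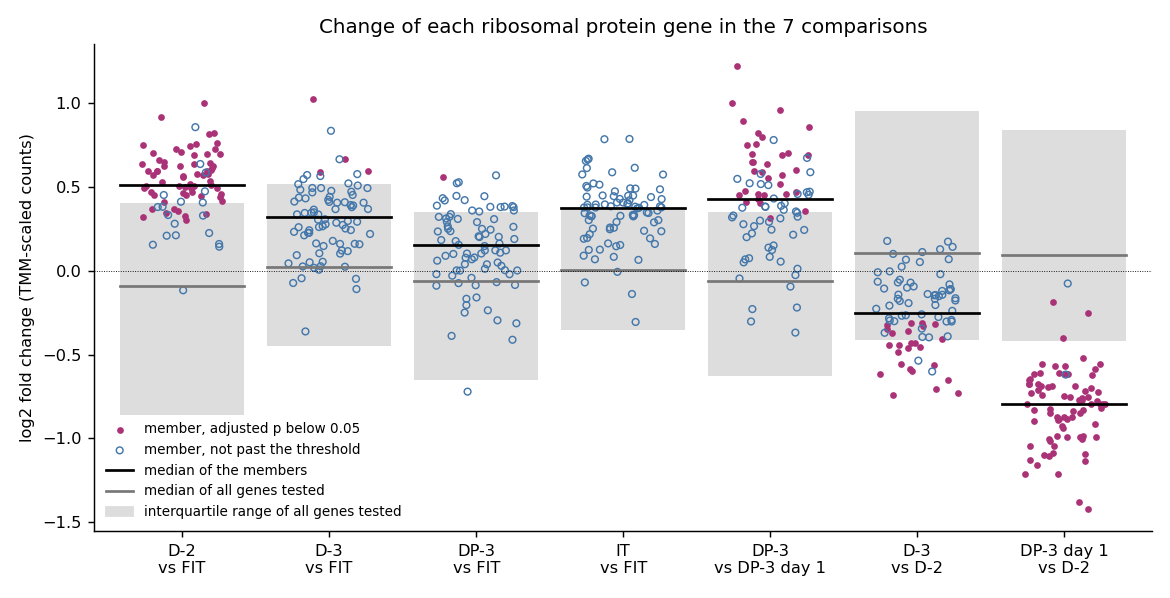
Log2 fold change of each member tested in the 7 comparisons (RPL3L left out), filled where the adjusted p was below 0.05, with the median of the members in black, the median of all genes tested in grey and the interquartile range of all genes as a grey box. The members' median is above that of all genes in the 4 comparisons with FIT and in DP-3 against DP-3 day 1, and below it in D-3 and DP-3 day 1 against D-2.

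Printed tissue was next compared over time. From day 1 to day 14, 33 of 83 ribosomal protein genes rose, but the libraries of day 14 did not move alike. The members' share of the FPKM was 6.19% and 6.602% in DP-3 replicates 1 and 2 and 3.73% in replicate 3, which was below every day 1 library. The log2 difference of that share was 0.049, and it ran from -0.10 to 0.31 with 1 library left out. All DP-3 libraries were above all DP-3 day 1 libraries in FPKM for 20 of 83 members, against 9.96% of all genes. The median log2 fold change was 0.43 over 83 members, or 1.34-fold, against -0.06 over all 20774 genes. None of the 83 fell in the test, while 12.2% of all genes rose and 9.91% fell. RPL41 was at 722, 754 and 402 FPKM at day 14 and at 318, 325 and 317 at day 1, a log2 fold change of 1.22 ± 0.20 (SE, adjusted p = 0.00768). RPS26 was at 102, 104 and 104 FPKM at day 1 and rose by 1.004 ± 0.09 on the log2 scale (adjusted p = 0.00182). RPS24, a small subunit protein, was at 50.8, 51.8 and 42.5 FPKM at day 14 and 28.9, 31.0 and 29.5 at day 1, a rise of 0.96 ± 0.09 on the log2 scale (adjusted p = 0.00182). In these genes every library of day 14 was above every library of day 1. RPS29, RPS3 and RPS27L were the lowest, at -0.37, -0.30 and -0.23 on the log2 scale, and none of them passed the test (adjusted p = 0.341, 0.263 and 0.429).

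The number of calls depended on single libraries in that comparison. Without DP-3 replicate 3, 69 members and 15.1% of all genes rose, and the members' median was 0.55. Without DP-3 replicates 1 and 2, 22 and 21 members rose, and without DP-3 day 1 replicates 1, 2 and 3 it was 17, 18 and 14. The members' median was between 0.32 and 0.55 in all of these. Apart from the 15.1%, the share of all genes is not given for them. Scaled to the total count alone, 10 members and 4.58% of all genes rose, and the median was 0.17 against -0.32 for all genes. The members stood 0.49 above the median gene on the log2 scale with either scaling. A change of scaling shifts all genes nearly alike, so this agreement follows by construction and is not a separate check.

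A further comparison set 3D cells against 2D cells. Here the result turned on the scaling, because the median of all genes was itself 0.11 higher in D-3 on the log2 scale with TMM and 0.37 higher with total counts. With TMM the members had a median of -0.25, and of 84 members 25 fell and 1, RPL3L, rose, while 16.3% of all genes fell and 19.2% rose. With total counts the median was 0.01, 5 members fell and 4 rose, while 7.68% of all genes fell and 27.0% rose. The members were 0.36 below the median gene on both scales, which follows by construction, as scaling shifts all genes nearly alike. The members' share of the FPKM did not differ beyond the spread between libraries. All D-3 libraries were above all D-2 libraries in FPKM for 14 of 84 members and below them for 14. Of all genes 38.6% lay above and 14.6% below. RPL26L1, RPL7L1 and RPL6 fell most with TMM, by 0.74, 0.73 and 0.70 on the log2 scale (adjusted p = 0.00685, 0.00734 and 0.00344). RPL6, of the large subunit, was at 134, 133 and 134 FPKM in D-3 and 169, 182 and 196 in D-2. RPL26L1 was at 21.9, 28.8 and 24.4 FPKM in D-3 and 36.3, 35.6 and 33.5 in D-2. Neither gene overlapped between groups, and both, with RPL7L1, also fell when scaled to the standard members (adjusted p = 0.0228, 0.0371 and 0.0316). RPS29 and RPS27L had log2 fold changes of 0.18 and 0.17 (adjusted p = 0.571 and 0.515). Without D-2 replicates 1, 2 or 3, or D-3 replicate 3, 10 to 12 members were called instead of 26. The share of all genes called in these fits is not given.

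The last comparison set printed tissue at day 1 against 2D cells and held the widest change of the members. It differs in both culture and time, and these cannot be told apart. The log2 fold change had a median of -0.79 over 83 members, or 0.578-fold, against 0.09 over all 20269 genes. Of the 83, 81 fell and 0 rose, while 23.4% of all genes fell and 22.4% rose. By at least 2-fold 16 members fell, and 4.13% of all genes did. All DP-3 day 1 libraries were below all D-2 libraries for 75 of 83 members, against 15.9% of all genes. With total counts the median was -0.49, and 73 fell and 1 rose, while 13.0% of all genes fell and 34.6% rose. The large and small subunits had medians of -0.80 and -0.76.

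RPL41 fell most, by 1.42 ± 0.04 on the log2 scale (SE, adjusted p = 1.76e-05). The paralog RPL26L1 was at 20.1, 15.9 and 14.2 FPKM at day 1 and fell by 1.38 ± 0.13 (adjusted p = 0.000284). RPL34 fell by 1.21 ± 0.05 (adjusted p = 2.12e-05), as did RPS24 (adjusted p = 1.76e-05). RPS24, at 55.2, 55.9 and 56.0 FPKM in D-2, was at 28.9, 31.0 and 29.5 FPKM at day 1. At the other end, RPS27L was at 9.89, 10.6 and 10.46 FPKM at day 1 and 7.94, 8.92 and 9.44 in D-2, and its log2 fold change was -0.08 with TMM (adjusted p = 0.453). RPL13, of the large subunit, was at 129, 145 and 145 FPKM at day 1 and 128, 127 and 129 in D-2, and RPS29 at 20.4, 20.3 and 19.8 against 19.9, 17.4 and 20.8. These fell by 0.19 and 0.25 on the log2 scale with TMM (adjusted p = 0.0370 and 0.0279), but with total counts their log2 fold changes were 0.11 and 0.05, and neither passed the test. Scaled to the standard members, 23 members fell and 11 rose, while 3.46% of all genes fell and 59.8% rose. On that scale RPL41 fell by 0.67, RPL34 and RPS24 by 0.46 each and RPL26L1 by 0.62, whereas RPS27L, RPL13 and RPS29 rose by 0.68, 0.57 and 0.50 (adjusted p from 3.99e-05 to 0.00705).

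**Figure D4:**
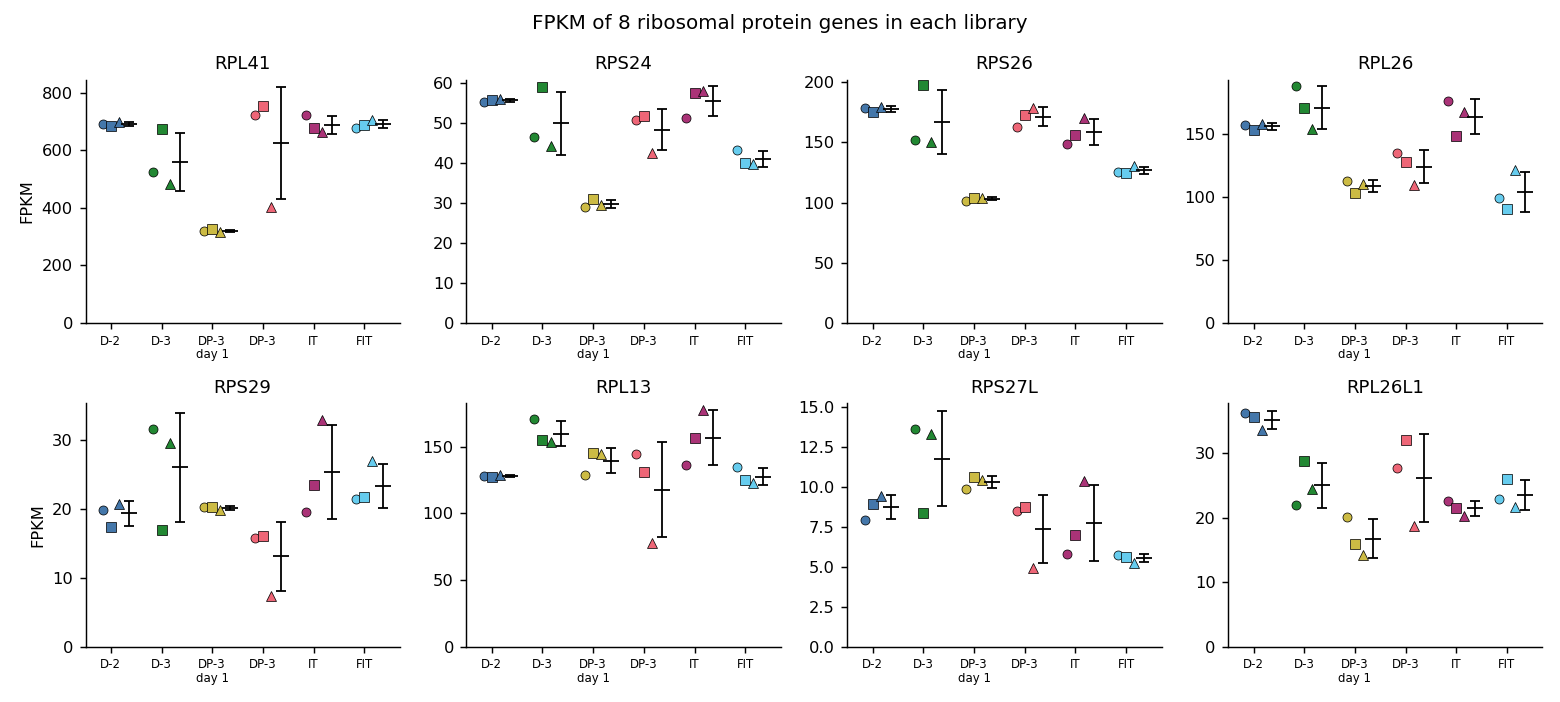
FPKM (vertical axes, from 0) of 8 members in each library (circle, square and triangle for replicates 1, 2 and 3), with the group mean and SD beside them. In DP-3 day 1, RPL41 is at 317 to 325 FPKM, RPS24 at 28.9 to 31.0 and RPS26 at 102 to 104, below all other libraries, while RPS29, RPL13 and RPS27L are not lowest in that group.

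The mRNAs of the stalk, which recruits elongation factors, all fell between D-2 and DP-3 day 1 but differed in the other comparisons. RPLP1 and RPLP2, the paired acidic proteins, fell by 0.75 and 0.70 on the log2 scale (adjusted p = 6.43e-05 and 4.45e-05), and RPLP0, which anchors them, fell by 0.68 (adjusted p = 0.000511). Against FIT, RPLP1 and RPLP2 rose in D-2 by 0.37 and 0.51 (adjusted p = 0.0295 and 0.00769). RPLP0 had a log2 fold change of 0.41 there and did not pass the test (adjusted p = 0.0973). In DP-3 replicate 3 the FPKM was 67.2 for RPLP1 and 167 for RPLP0, against 170 and 196 for RPLP1 and 167 and 183 for RPLP0 in the other DP-3 libraries, so that the stalk genes did not move together in that library.

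RPL5 and RPL11 form a particle with 5S rRNA before they join the large subunit. RPL5 was at 183, 173 and 183 FPKM in D-2, at 125, 122 and 123 in FIT and at 133, 135 and 133 in DP-3 day 1. It rose in D-2 against FIT by 0.70 ± 0.09 on the log2 scale and fell in DP-3 day 1 against D-2 by 0.74 ± 0.04 (SE, adjusted p = 0.00280 and 3.85e-05). RPL11 rose and fell alike, by 0.62 and 0.77 (adjusted p = 0.00444 and 0.00136). RPSA, a small subunit protein also known as the laminin receptor, was at 339, 307 and 313 FPKM in D-2, 207, 198 and 240 in FIT and 248 to 255 in DP-3 day 1. It rose by 0.73 on the log2 scale between FIT and D-2 (adjusted p = 0.00411) and fell by 0.65 between D-2 and DP-3 day 1 (adjusted p = 0.000111).

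The 8 paralogs differed widely in level. In FPKM, RPL36AL was far above its counterpart, at 146 to 299.9, whereas RPL36A was at 26.5 to 65.5. In estimated counts their mean log2 ratio was 0.05 in D-2 and -0.26 in FIT, so their counts were about equal. FPKM divides by transcript length, so the excess depends on the lengths used, which were not checked. The percentages of the other pairs below depend on such lengths too. RPL7L1, RPL26L1, RPL22L1, RPL39L and RPS27L were expressed at lower levels, and RPL3L and RPL10L were near 0. RPL3L, known from muscle and heart, was at most 0.223 FPKM. Its estimated counts were 4 to 8 in D-2 and 28 to 40 in D-3, the pair in which it was called, and 0 in 3 of the 6 IT and FIT libraries. At such counts its fold change is not given. RPL10L, known from testis, was listed at 0 in 16 libraries and at 0.0612 and 0.0807 FPKM in 2 of DP-3 day 1. It passed the filter in no comparison between groups.

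The FPKM of each paralog was set against that of its counterpart as a percentage. With 3 libraries against 3, the two-sided exact permutation test cannot go below p = 0.1, so whether the groups overlapped is given. Adjusted over the 45 exact permutation tests of such ratios, p = 0.1 becomes an adjusted p of 0.3. RPS27L stood at 3.38%, 3.96% and 3.91% of RPS27 in D-2, 6.22%, 6.32% and 6.46% in DP-3 day 1, and 2.82% to 3.77% in DP-3. DP-3 day 1 was above every library of the other groups (exact permutation p = 0.1 against D-2 and against DP-3), and D-2 was above FIT, which was at 1.99% to 3.31% (exact permutation p = 0.1). RPL26L1 stood at 21.2% to 23.2% of RPL26 in D-2, 17.8% to 28.6% in FIT and 16.99% to 24.97% in DP-3. It was lower in D-3 at 11.6% to 16.8%, in DP-3 day 1 at 12.8% to 17.8% and in IT at 12.1% to 14.4%. IT and D-3 were apart from FIT (exact permutation p = 0.1 each). RPL22L1 stood at 9.75% to 12.1% of RPL22 in DP-3 day 1 and 13.9% to 15.9% in D-2 (exact permutation p = 0.1), and its other groups overlapped. RPL7L1 at 3.20% to 16.6% of RPL7 and RPL39L at 3.70% to 29.7% of RPL39 overlapped between the groups of every comparison.

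**Figure D5:**
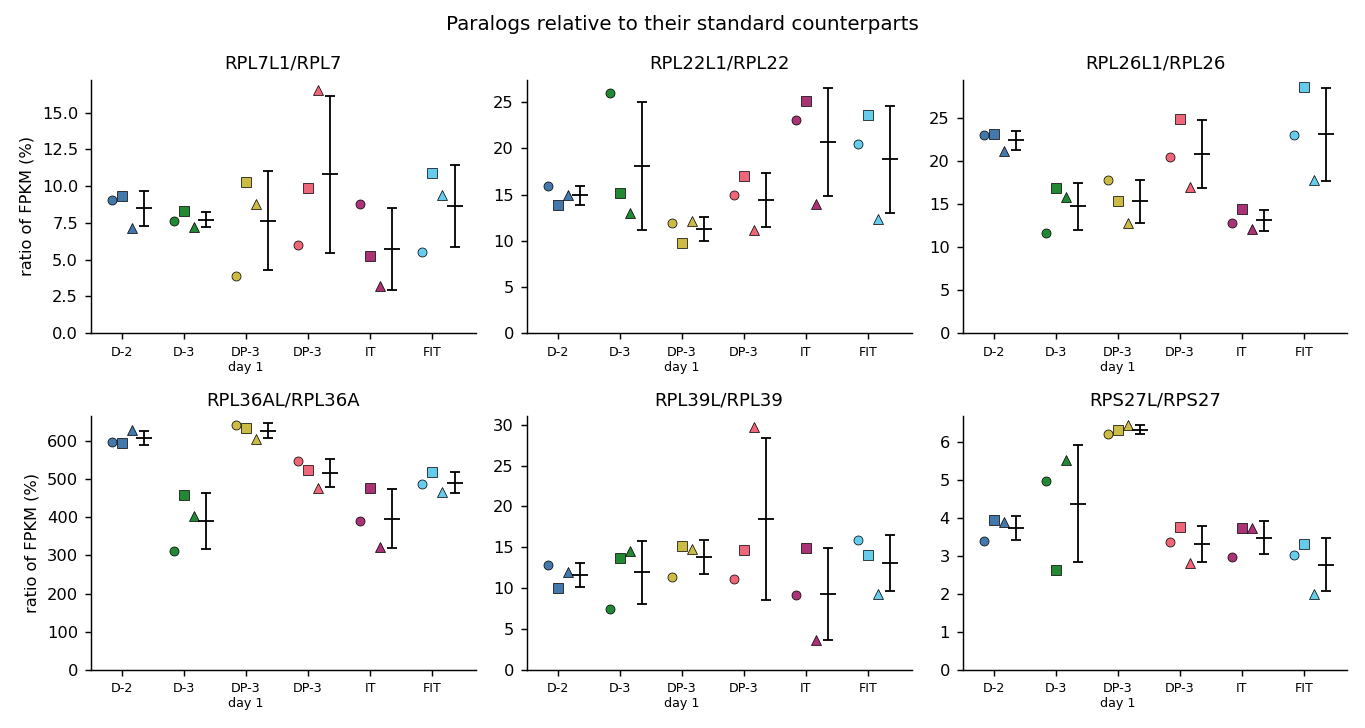
FPKM of 6 paralogs as a percentage of the FPKM of their standard counterparts (vertical axes, from 0) in each library (circle, square and triangle for replicates 1, 2 and 3), with the group mean and SD beside them. RPS27L relative to RPS27 is at 6.22% to 6.46% in DP-3 day 1 and no higher than 5.54% elsewhere, and RPL26L1 relative to RPL26 is lower in D-3, IT and DP-3 day 1 than in D-2.

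RPL36AL stood at 597% to 629% of RPL36A in D-2, 605% to 644% in DP-3 day 1, 476% to 548% in DP-3, 467% to 520% in FIT, 311% to 458% in D-3 and 322% to 478% in IT. D-2 was above FIT and D-3 below it without overlap. RPL36A shares exons with the readthrough gene RPL36A-HNRNPH2, which was listed at 17.9 FPKM in D-2 replicate 1 and 18.4 in IT replicate 1 and at 0 to 2.56 in the other libraries. With it added to RPL36A, the ratio was 429% in D-2 replicate 1, below all FIT libraries, and 597% in the other D-2 libraries, so D-2 and FIT then overlapped. D-3 remained below FIT, at 311% to 458%.

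The start motif and the length of the coding sequence were set against the changes as a description. In DP-3 day 1 against D-2, the 46 standard members with the oligopyrimidine start had a median log2 fold change of -0.75 and the 16 without it -0.78. In the same order the medians were 0.50 and 0.49 in D-2 against FIT and 0.37 and 0.36 in IT against FIT. They lay further apart in D-3 against FIT at 0.35 and 0.20, in DP-3 against FIT at 0.096 and 0.24, in DP-3 against DP-3 day 1 at 0.35 and 0.50 and in D-3 against D-2 at -0.18 and -0.31. The motif thus went with the higher median in some comparisons and the lower in others. Across the 77 standard members, which share libraries, Spearman's rho between coding length and log2 fold change was 0.30 in DP-3 day 1 against D-2, 0.28 in D-2 against FIT, 0.32 in DP-3 against FIT and -0.38 in D-3 against D-2. It was 0.049 in IT and -0.13 in D-3 against FIT and -0.093 in DP-3 against DP-3 day 1.

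FAU and RACK1, outside the name rule, moved with the members where they passed the test. FAU, fused to a ubiquitin-like domain, rose by 0.39 on the log2 scale in D-2 against FIT and fell by 0.71 in DP-3 day 1 against D-2 (adjusted p = 0.0159 and 4.86e-05). RACK1, a scaffold on the small subunit, fell by 0.60 in DP-3 day 1 (adjusted p = 0.0297) and was 0.25 higher in D-2 than in FIT without passing the test (adjusted p = 0.198).

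Genes that build the ribosome moved in most of the comparisons in which the members did, and in DP-3 against FIT as well. Of 38 ribosome assembly factors, 28 rose in D-2 against FIT, 37 fell in DP-3 day 1 against D-2, 31 rose in DP-3 between day 1 and day 14 and 32 fell in D-3 against D-2. Their medians in log2 were 0.62, -0.87, 0.55 and -0.71. In the same order, 16.0%, 23.4%, 12.2% and 16.3% of all genes changed in those directions. NPM1, a nucleolar chaperone, rose by 1.23 in D-2 against FIT and fell by 1.49 in DP-3 day 1 (adjusted p = 0.00169 and 1.76e-05), and BYSL, which matures the small subunit, rose by 1.11 and fell by 1.41 (adjusted p = 0.00232 and 0.000300). In DP-3 against FIT 7 of the 38 rose, with a median of 0.41, while 1 of 83 members and 4.21% of all genes rose. None of the 38 passed the test in D-3 or IT against FIT, where their medians were -0.04 and -0.09 while those of the ribosomal protein genes were 0.32 and 0.38. The difference between the lists was not tested.

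The proteins of the mitochondrial ribosome are encoded by other genes and make proteins inside mitochondria. Of 76 such genes, 51 rose in D-2 against FIT, 68 fell in DP-3 day 1 against D-2, 35 rose in DP-3 between day 1 and day 14 and 49 fell in D-3 against D-2, with medians of 0.60, -0.76, 0.51 and -0.59 on the log2 scale. In the same order, 16.0%, 23.4%, 12.2% and 16.3% of all genes changed in those directions. In D-3 against FIT 2 of the 76 rose and 1 fell, with a median of -0.05, while 5.11% of all genes rose and 3.17% fell. Of 15 genes on a list of translation factors and related proteins, 11 rose in D-2 against FIT and 11 fell in DP-3 day 1 against D-2, with medians of 0.40 and -0.47. Of all genes 16.0% rose in the first and 23.4% fell in the second. EIF3E, a subunit of an initiation factor, rose by 0.96 and fell by 1.03 (adjusted p = 0.00166 and 1.94e-05). EEF1A1, the elongation factor that brings aminoacyl tRNA, was chosen after its values were seen and was at 1352 to 1431 FPKM in D-2, 872 to 985 in FIT and 1424 to 1438 in DP-3 day 1, so that D-2 and DP-3 day 1 overlapped.

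Of 11 regulators of ribosome production, 2 rose in D-2 against FIT, 4 fell in D-3 against D-2 and 5 fell in DP-3 day 1 against D-2. In the same order, 16.0% of all genes rose, and 16.3% and 23.4% fell. LARP4, an mRNA-binding protein, fell by 1.08 in D-3 and 0.86 in DP-3 day 1 against D-2 (adjusted p = 0.00320 and 0.0209). EIF4EBP1, which blocks initiation when mTOR is inactive, fell by 0.58 in DP-3 day 1 against D-2 (adjusted p = 0.000224) and rose by 0.45 in DP-3 between day 1 and day 14 (adjusted p = 0.0109). Of 8 noncoding genes that host small nucleolar RNAs, 3 rose in D-3 against FIT, with a median log2 fold change of 0.71. There 5.11% of all genes rose. In DP-3 day 1 against D-2, 4 of the 8 fell and 1 rose, while 23.4% of all genes fell and 22.4% rose. SNHG5 fell by 1.01 in that last comparison (adjusted p = 4.04e-05), and GAS5 rose by 0.18 (adjusted p = 0.0290).

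Pseudogenes of the members made up 961 of the genes listed and had a summed FPKM of 2337 to 3282 per library, while the members had 10435 to 18919. Of the 207 pseudogenes tested in D-2 against FIT 26 rose and 6 fell, and of the 231 tested in DP-3 day 1 against D-2 15 rose and 41 fell. The shares of all genes were 16.0% higher and 14.9% lower in the first and 22.4% and 23.4% in the second, and each count of pseudogenes was a smaller share than that of all genes. Reads that fit a member and its pseudogene equally well can be counted for either, so a member's level is uncertain by that share, and how reads were shared is not given in the sources used here.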

How the data were processed

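RNA was measured by poly(A)-selected, paired-end sequencing in 18 libraries. The deposited table holds estimated counts and FPKM per gene, both made by the authors. The submitters' processing notes name cutadapt 1.9, HISAT2 2.0.4, StringTie 1.3.4d, DESeq2 and edgeR, while the genome build and how the counts were made are not given in the sources used here. Of the estimated counts from 1 to 40, 35.0% were multiples of 4. Samples were grouped by their labels, and 0 columns of per-sample values were left unused. The counts were tested in pairs of groups (6 libraries) with edgeR 4.0.16 (TMM, quasi-likelihood test). Genes tested reached an FPKM of 0.1 in 3 or more of these libraries. A test for any difference used all 18. Adjusted p-values follow Benjamini and Hochberg over all genes tested, with a threshold of 0.05. Ratios of FPKM were compared with exact permutation tests. Alternatives were DESeq2 1.42.0, limma 3.58.1 on log2(FPKM + 0.1) or log2(FPKM + 1), other scalings and filters, 1 fit of all libraries, a replicate block and leaving out each library. On simulated data of D-2 against FIT (19513 genes), edgeR recovered 112 of 120 genes changed 4-fold and 7 of 80 changed 1.4-fold, with 8 false calls. The simulation gave every gene the same fixed spread, which was not fitted to these libraries. Its counts therefore do not give the power or error rate of the real test. Depth was 23721666 to 79082786 estimated counts per library. Named singly were the paralogs and their counterparts, the 5 most and 5 least abundant members, the 3 highest and 3 lowest fold changes of each comparison, the 5 smallest p-values among the groups, the stalk, RPL5, RPL11 and RPSA, and the 2 highest and 2 lowest genes of each other list. The members and the lists were chosen with earlier results of these data known. R 4.3.3 and Python 3.11.15 were used. Some genes that these rules select are not reported here.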

Additional observations from a re-analysis of the deposited data

Results flagged for a closer look

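RPL36AL relative to RPL36A moved in opposite directions from FIT in D-2 and D-3, with a mean of 608% for D-2, 390% for D-3 and 491% for FIT, and every D-2 library above and every D-3 library below every FIT library. The difference between these effects was not tested. With the readthrough gene RPL36A-HNRNPH2 added to RPL36A, a step chosen after seeing the data, D-2 replicate 1 was at 429%, and D-2 no longer lay above FIT, where the lowest library was at 467%. The log2 difference of the ratio was then 0.12 in D-2 and -0.36 in D-3 against FIT. Before that step the difference in D-3 against FIT was -0.35, and -0.19 without D-3 replicate 1.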

How the results depend on the processing

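The number of members called depended on the settings. In D-3 against FIT it was 18 with DESeq2, 13 with total counts, 1 scaled to the ribosomal protein genes, 2 with no filter, 11 with an FPKM of at least 1, 12 and 11 with limma (pseudocounts 0.1 and 1) and 17 in 1 fit of all libraries, where DESeq2 called 17.2%, total counts 8.78% and 1 fit 16.8% of all genes. In DP-3 against FIT it was 3 with DESeq2 (18.5% of all genes), 8 in 1 fit (17.6% of all genes), and 0 with total counts, scaled to the ribosomal protein genes and with limma at both pseudocounts. In IT against FIT it was 5 with DESeq2 (4.34% of all genes) and 14 in 1 fit (4.89% of all genes). In DP-3 against DP-3 day 1 it was 10 with total counts (4.58% of all genes rose), 6 scaled to the ribosomal protein genes and 7 with limma at both pseudocounts. In D-3 against D-2 it was 9 with total counts, where 7.68% of all genes fell and 27.0% rose. There it was 7 scaled to the ribosomal protein genes, 12 with an FPKM of at least 1 and 8 with limma at both. Scaled to the ribosomal protein genes it was 6 in D-2 against FIT and 34 in DP-3 day 1 against D-2, where 3.46% of all genes fell and 59.8% rose. For any difference it was 13 (46.3% of all genes), which limma put at 44 and 42. Where no share of all genes stands beside a count, the count does not show whether the members or all genes gained or lost calls. Beyond what each setting changes by construction, the cause was not tested.

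Same-numbered libraries did not deviate together (correlations from -0.034 to 0.041 over 21 pairs, and from -0.051 to 0.047 over 42 pairs with other numbers), so the numbers were not taken as pairs. With the replicate number as a block, the calls were 0 in D-3 and 0 in DP-3 against FIT and 16 in D-3 against D-2, and the other counts were within 1.5 times.

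Leaving out 1 library gave 47 to 66 calls for D-2, 0 to 2 for D-3 and 0 for both DP-3 and IT against FIT. It gave 14 to 69 in DP-3 against DP-3 day 1, the 69 without DP-3 replicate 3, where 15.1% of all genes rose. It gave 10 to 35 in D-3 against D-2, 77 to 80 in DP-3 day 1 against D-2 and 57 to 74 for any difference. The other shares of all genes are not given, so these ranges do not tell the members from all genes. The log2 difference of the members' share of the FPKM was 0.47 in D-2 against FIT, and 0.29 outside the mitochondrial genome, 0.36 in counts and 0.55 with TMM. In D-3 against FIT it was 0.45, and 0.29 outside the mitochondrial genome and 0.28 with TMM. In D-3 against D-2 it was -0.02, and -0.28 with TMM. In DP-3 day 1 against D-2 it was -0.53, and -0.44, -0.46 and -0.76 in the same order. In DP-3 day 1 against D-2, RPS29 turned to 0.05 with total counts, 0.50 scaled to the ribosomal protein genes and 0.063 and 0.060 with limma at both pseudocounts, and RPL13 to 0.11, 0.57 and 0.12. Both lost the call, keeping their direction, with an FPKM of at least 1, in 1 fit and with the block. All 19 alternatives for the paralog ratios moved them in the same direction as reported. Counts in place of FPKM change a ratio only by a nearly fixed length factor, so there the direction could hardly change. With RPL36A-HNRNPH2 added to RPL36A, the direction held but D-2 overlapped with FIT.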
